A study of Mus musculus with 30 samples.

Results

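Repopulated and resident microglia were compared in the adult offspring of MIA dams, with MIA + MG-REP libraries 1 to 3 set against MIA + CTRL libraries 1 to 3 over 14225 transcripts of 13483 genes. These 6 libraries, 3 in each group, are all the P60 libraries of MIA offspring among the 30 libraries of the series, and they were taken by their labels. Each library held the poly(A) RNA of CD11b+ cells pulled with magnetic beads from the whole brain of 1 C57BL/6J mouse at P60 (postnatal day 60). Both groups were born to dams injected with poly(I:C) (maternal immune activation, MIA), so the injection is common to all 6 libraries. Poly(I:C) is an artificial RNA duplex that mimics a viral infection. MIA + CTRL mice ate control chow after weaning. MIA + MG-REP mice ate chow with PLX5622, an inhibitor of the receptor CSF1R, and then control chow until sampling. The Saline + CTRL and Saline + MG-REP groups at P60, with 3 libraries each, had the same diets after saline injections of the dam. The inhibitor also acts on other cells that need CSF1R, and CD11b marks other myeloid cells besides microglia.

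Microglia, the macrophages of brain tissue, arise in the yolk sac and need signals through CSF1R to survive. When an inhibitor of the receptor is withdrawn, the few cells that are left divide and fill the emptied brain again. Genes such as P2ry12, Tmem119 and Cx3cr1 mark the resting, homeostatic state, while Itgax, Cst7 and Clec7a are known from microglia near plaques and injury, and interferons induce Oas1a, Ifi204 and many others.

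About 8450000 to 11430000 reads per library lay behind the TPM of MIA + CTRL and 10080000 to 10800000 behind those of MIA + MG-REP, as estimated from the steps between low TPM. For a transcript of 1 kb, a single read then stood for 0.234 to 0.329 TPM. MIA + CTRL library 1 stood apart. The summed TPM of 10 microglial markers was 30599 in it against 43386 and 46354 in the other MIA + CTRL libraries, and that of 15 astrocyte markers was 9630 against 5711 and 4823. It was also the only MIA + CTRL library with Xist, the RNA of the inactive X chromosome of female cells, at 139.9, 0.14 and 0.2 TPM in libraries 1 to 3, while all MIA + MG-REP libraries had it, at 174, 163 and 159 TPM. Ddx3y of the Y chromosome showed the converse, at 0.28, 123 and 115 TPM in MIA + CTRL and at most 0.16 TPM in MIA + MG-REP. The labels give no sex, and in this comparison sex and chow are partly confounded, so each group of called genes below is followed by its adjusted p-values with log2 Xist as a covariate and in the Xist-carrying libraries alone.

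Repopulation in MIA offspring left a small set of transcripts changed, more of them upwards than downwards. In limma's moderated test on log2(TPM + 1), adjusted over all transcripts, 79 transcripts of 78 genes had an adjusted p under 0.05, which is 0.555% of those tested. Of these, 55 were higher in MIA + MG-REP (0.387% of all transcripts) and 24 were lower (0.169%). The median log2 fold change over all transcripts was −0.08, and 4890 of the 14225 had a positive one. The libraries of the groups did not overlap for any of the 79, against 17.8% of all transcripts without overlap. The 79 were selected on these same 6 libraries, which favors such separation. A lack of overlap, here or for single genes below, is therefore a description and no further support. The 55 had a median level of 21 TPM over the 6 libraries and the 24 one of 8.81 TPM, against 14.8 TPM for all transcripts. With the Xist covariate 27 of the 79 kept an adjusted p under 0.05, and 22 did with the Xist-carrying libraries alone, where 1 MIA + CTRL library is assumed to vary like the other groups. All 79 kept their sign in both. With 1 library left out, 71, 42 and 50 transcripts were called in all without MIA + CTRL library 1, 2 or 3, and 41, 43 and 52 without MIA + MG-REP library 1, 2 or 3. Of the 79, 36 were called in all 6 of these fits (26 higher and 10 lower), and for the others the largest adjusted p with 1 library left out stands beside most of those described singly. At an unadjusted p under 0.05 there were 882 transcripts (6.2%). In bulk RNA, fewer cells of a type cannot be told from less RNA per cell.

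**Figure D1:**
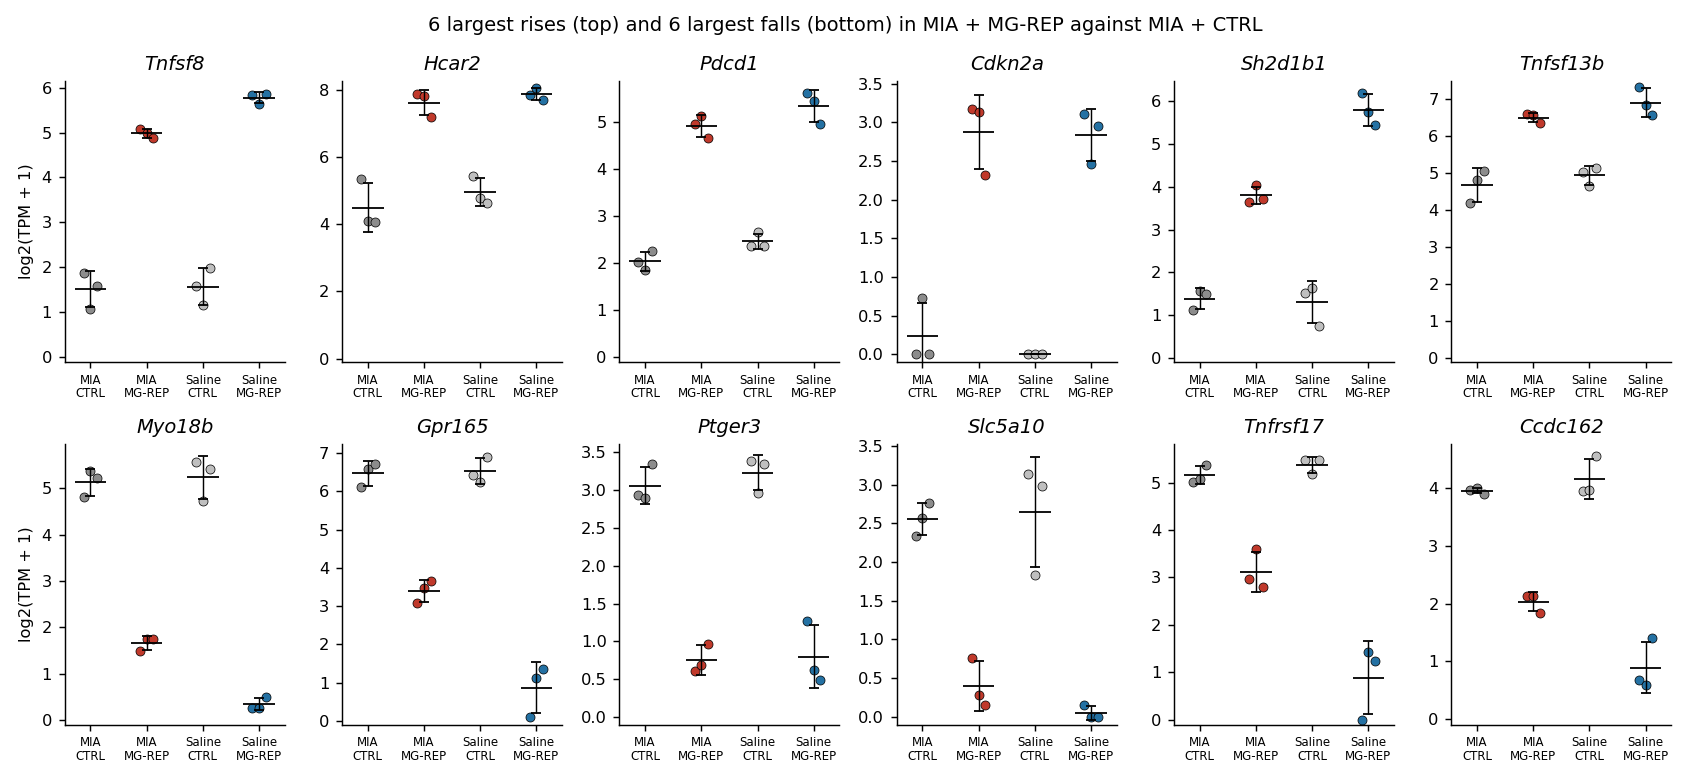
Level of the 6 most increased (top) and 6 most decreased (bottom) genes on a log2(TPM + 1) axis, with 1 point per library in the 4 P60 groups and the mean and SD (n = 3) as black lines. In every panel the MIA + MG-REP points (red) lie apart from the MIA + CTRL points (dark grey), and the log2 fold changes run from −3.48 for Myo18b to 3.47 for Tnfsf8.

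Ligands of the TNF superfamily gave the largest rise. Tnfsf8 (NM_009403, chromosome 4, 63831202 to 63861508), the ligand of the receptor CD30, had 2.66, 1.12 and 1.99 TPM in MIA + CTRL and 32.9, 30.9 and 28.3 TPM in MIA + MG-REP (log2 fold change 3.47, SE 0.23, adjusted p = 1.37e-09). All 3 repopulated libraries stood far above all 3 resident ones. Tnfsf13b (NM_033622, chromosome 8, 10006229 to 10036000), the B cell survival factor BAFF, had 17, 27 and 31.9 TPM in MIA + CTRL and 94.1, 92.4 and 80.3 TPM in MIA + MG-REP (log2 fold change 1.81, SE 0.29, adjusted p = 0.00135). A receptor of BAFF moved the other way. Tnfrsf17 (NM_011608, chromosome 16, 11313232 to 11320074), which encodes BCMA, had 31.2, 32.8 and 40.3 TPM in MIA + CTRL and 6.78, 11.2 and 5.97 TPM in MIA + MG-REP (log2 fold change −2.03, SE 0.38, adjusted p = 0.00615, at most 0.0548 with 1 library left out), without overlap. Of the B cell receptor chains, Cd79b had 1.07, 2.03 and 1.52 TPM in MIA + CTRL and 0.43, 0.4 and 0.2 TPM in MIA + MG-REP (adjusted p = 0.13), and Cd79a was under 2 TPM in all 6 libraries. The part of B cells in the fall of Tnfrsf17 was not tested. Of 29 transcripts of TNF ligands and receptors, 2 were called higher and 1 lower, and their median log2 fold change was 0.01. Tnf itself had a log2 fold change of 1.12 (adjusted p = 0.298). Tnfsf8 and Tnfsf13b kept the call with the Xist covariate and in the Xist-carrying libraries alone. The adjusted p with the covariate and in those libraries was 0.0913 and 0.263 for Tnfrsf17.

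Immune receptors with inhibitory or costimulatory roles changed in both directions. Pdcd1 (NM_008798, chromosome 1, 94038305 to 94052553), the inhibitory receptor PD-1, had 3.07, 2.59 and 3.75 TPM in MIA + CTRL and 29.9, 33.6 and 24 TPM in MIA + MG-REP (log2 fold change 2.86, SE 0.26, adjusted p = 2.66e-07). Pilra, an inhibitory receptor of myeloid cells, rose from 11.4 ± 1.03 to 41.5 ± 5.82 TPM (SD, n = 3, log2 fold change 1.77, adjusted p = 0.00452). Icos, a costimulatory receptor best known from T cells, had 4.64, 4.69 and 4.38 TPM in MIA + CTRL and 1.37, 2.48 and 1.94 TPM in MIA + MG-REP (log2 fold change −0.94, SE 0.22, adjusted p = 0.0468, at most 0.363 with 1 library left out). Every resident library lay above every repopulated one. Cd276, a ligand of the B7 family, fell from 38 ± 3.03 to 16.7 ± 1.32 TPM (SD, n = 3, log2 fold change −1.14, adjusted p = 0.000605). Of 32 transcripts in the list of inhibitory and costimulatory receptors, 2 were higher and 1 lower, with a median log2 fold change of 0.29. Sh2d1b1 (NM_012009, chromosome 1, 170277318 to 170286769), an adaptor of the SLAM family of receptors, had 1.15, 1.94 and 1.79 TPM in MIA + CTRL and 11.5, 15.4 and 12.2 TPM in MIA + MG-REP (log2 fold change 2.42, SE 0.37, adjusted p = 0.000618), so every repopulated library was above every resident one. Pdcd1 and Sh2d1b1 stayed called both with the Xist covariate and in the Xist-carrying libraries alone. In these 2 alternatives, in that order, the adjusted p was 0.0554 and 0.198 for Pilra, 0.367 and 0.293 for Icos and 0.0686 and 0.0593 for Cd276.

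Other adaptors and surface proteins of leukocytes rose as well. Pstpip1, an adaptor between phosphatases and the actin skeleton, had 8.7, 7.8 and 8.21 TPM in MIA + CTRL and 35.7, 29.4 and 29.4 TPM in MIA + MG-REP (log2 fold change 1.81, adjusted p = 0.00065). Scimp, a membrane adaptor of antigen-presenting cells, had 2.8, 6.58 and 6.2 TPM in MIA + CTRL and 20.6, 15.3 and 23.2 TPM in MIA + MG-REP (log2 fold change 1.79, adjusted p = 0.0348, at most 0.213 with 1 library left out). All repopulated values lay above the resident ones. Cd52, a small lipid-anchored surface glycoprotein, was abundant in both groups, with 257, 355 and 376 TPM in MIA + CTRL and 747, 846 and 727 TPM in MIA + MG-REP (log2 fold change 1.24, adjusted p = 0.000375). Cd69, an early activation antigen of the C-type lectin family, had 3.45, 6.52 and 5.05 TPM in MIA + CTRL and 15.9, 16 and 10.8 TPM in MIA + MG-REP (log2 fold change 1.35, adjusted p = 0.0204, at most 0.143 with 1 library left out). Siglec1, the sialic acid-binding receptor sialoadhesin, had 14.2, 12.8 and 12.9 TPM in MIA + CTRL and 40.9, 29.6 and 24.8 TPM in MIA + MG-REP (log2 fold change 1.17, adjusted p = 0.0455, at most 0.363 with 1 library left out). Ms4a4c of the Ms4a family had 4.01, 4.84 and 5.97 TPM in MIA + CTRL and 16.4, 13.5 and 16.1 TPM in MIA + MG-REP (log2 fold change 1.47, adjusted p = 0.0453, at most 0.221 with 1 library left out). Cd69, Siglec1 and Ms4a4c were the called members among 26 transcripts of lectins, Siglecs and Ms4a genes, whose median log2 fold change was 0.23. Klrg2, a lectin-like receptor, rose from 3.2 ± 0.248 to 8.42 ± 0.745 TPM (SD, n = 3, log2 fold change 1.16, adjusted p = 0.0263, at most 0.157 with 1 library left out), and Map4k1, a kinase that restrains antigen receptor signals, rose from 4.74 ± 0.72 to 13.5 ± 1.46 TPM (SD, n = 3, log2 fold change 1.34, adjusted p = 0.000586). Cd52 and Map4k1 kept the call with the Xist covariate and in the Xist-carrying libraries alone. Adjusted p-values under the covariate and in those libraries were 0.0308 and 0.127 for Pstpip1, 0.132 and 0.111 for Scimp, 0.0681 and 0.108 for Cd69, 0.676 and 0.335 for Siglec1, 0.349 and 0.249 for Ms4a4c and 0.408 and 0.308 for Klrg2. The log2 fold change of Siglec1 was 0.79 with the covariate.

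Interferon-stimulated genes leaned upwards, with few of them called. Of 58 transcripts in that list 3 were higher and none lower in limma (17 higher and 0 lower at an unadjusted p under 0.05, against 6.2% of all transcripts). A positive log2 fold change was found for 55, against 4890 of all 14225 transcripts. The median was 0.41 against −0.08 for all transcripts. The median was 0.16 in the Xist-carrying libraries alone. The called members were Ifi204, Oas1a and Ifi27l2a. Ifi204 (NM_008329, chromosome 1, 173747293 to 173767069), a sensor of DNA, had 13.8, 18.1 and 17.5 TPM in MIA + CTRL and 60.2, 60.3 and 50.5 TPM in MIA + MG-REP (log2 fold change 1.74, SE 0.24, adjusted p = 0.000302). Oas1a, an oligoadenylate synthetase that is activated by double-stranded RNA, had 8.18, 10.6 and 6.19 TPM in MIA + CTRL and 22.1, 26.1 and 21.6 TPM in MIA + MG-REP (log2 fold change 1.40, SE 0.29, adjusted p = 0.0219, at most 0.159 with 1 library left out). Ifi27l2a, a small protein of the mitochondrial and nuclear membranes, had 24.1, 20.9 and 28.7 TPM in MIA + CTRL and 62.2, 69.7 and 52.3 TPM in MIA + MG-REP (log2 fold change 1.29, SE 0.21, adjusted p = 0.00135). In all 3 every repopulated library lay above every resident one. Pyhin1, a relative of Ifi204, and Phf11a had log2 fold changes of 1.48 (adjusted p = 0.0491) and 1.06 (adjusted p = 0.033), with largest adjusted p-values of 0.257 and 0.215 when 1 library was left out. Ifi204, Pyhin1, Oas1a and Phf11a have close relatives in the genome, and reads shared with them could be split between copies. Ifi204 stayed called both with the Xist covariate and in the Xist-carrying libraries alone. Under the covariate and then in those libraries, adjusted p was 0.407 and 0.233 for Oas1a, 0.0676 and 0.0666 for Ifi27l2a, 0.349 and 0.224 for Pyhin1 and 0.322 and 0.292 for Phf11a.

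Genes of antigen presentation and complement followed. H2-DMa, which helps to load peptides onto class II molecules, had 135, 182 and 205 TPM in MIA + CTRL and 352, 359 and 319.8 TPM in MIA + MG-REP (log2 fold change 0.99, SE 0.18, adjusted p = 0.00452). It was the called member among 10 class II transcripts. All 10 had positive log2 fold changes, as did 4890 of all 14225 transcripts, and the median of the 10 was 0.47. The class II chains themselves were not called, with Cd74 at 0.48 (adjusted p = 0.978) and H2-Ab1 at 0.36 (adjusted p = 0.978). Of 26 class I transcripts 2 were higher, the classical H2-D1 and H2-M3, which presents formylated peptides, and the median was 0.39. H2-D1 had 270.0, 318 and 321 TPM in MIA + CTRL and 556, 571 and 471 TPM in MIA + MG-REP (log2 fold change 0.81, adjusted p = 0.0232, at most 0.147 with 1 library left out) and H2-M3 had 58.1, 57.9 and 71 TPM in MIA + CTRL and 105, 119 and 110.3 TPM in MIA + MG-REP (log2 fold change 0.83, adjusted p = 0.0409, at most 0.224 with 1 library left out). Reads of class I genes can be shared among them. C3, the central component of complement, had 7.61, 6.27 and 6.18 TPM in MIA + CTRL and 27.9, 24.1 and 19.4 TPM in MIA + MG-REP (log2 fold change 1.68, SE 0.35, adjusted p = 0.0204, at most 0.141 with 1 library left out). C3 and Itgax, a subunit of complement receptor 4, were the called members of 21 complement transcripts, with a median of 0.12. H2-DMa kept the call with the Xist covariate and in the Xist-carrying libraries alone. The adjusted p with the covariate and in those libraries was 0.144 and 0.127 for H2-D1, 0.328 and 0.23 for H2-M3 and 0.287 and 0.335 for C3.

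Of 33 transcripts of disease-associated microglia genes, 3 rose and none fell by limma, and the median log2 fold change was 0.25. At an unadjusted p under 0.05 limma gave 10 higher and 1 lower, against 6.2% of all transcripts. The 3 called were Cd52, Itgax and Cst7. Itgax (NM_021334, chromosome 7, 128129526 to 128150657), the integrin CD11c, had 13.7, 15.7 and 19.6 TPM in MIA + CTRL and 49.7, 54.8 and 44.3 TPM in MIA + MG-REP (log2 fold change 1.55, SE 0.21, adjusted p = 0.000164), without overlap. It was also the called member of 36 transcripts of integrins and matrix genes. Cst7, an inhibitor of lysosomal cathepsins, had 17, 16.9 and 17.8 TPM in MIA + CTRL and 58, 48.9 and 42.1 TPM in MIA + MG-REP (log2 fold change 1.46, SE 0.31, adjusted p = 0.0232, at most 0.168 with 1 library left out). Its resident libraries lay within 1 TPM of each other. Trem2, a lipid receptor, had 6.88, 8 and 11.8 TPM in MIA + CTRL and 10.3, 12.2 and 10.2 TPM in MIA + MG-REP (log2 fold change 0.29, adjusted p = 0.978), and Il1b, a proinflammatory cytokine, had 256, 217 and 185 TPM in MIA + CTRL and 282, 281 and 219 TPM in MIA + MG-REP (log2 fold change 0.25, adjusted p = 0.979). The groups overlapped for both. The 3 listed transcripts of Apoe, a lipoprotein that carries lipids, lay between 0.99 and 4.11 TPM in the 6 libraries, with log2 fold changes of −0.72, −0.14 and 0.39 (adjusted p from 0.673 to 0.979). Trem2 was listed by NM_001272078 alone. Any transcript of Apoe or Trem2 that is not listed was not seen here, so these values are not the levels or changes of the whole genes. Clec7a was not analysed here. Among 46 transcripts of lysosomal proteases and hydrolases Ctsh, an aminopeptidase, was the called one, with 58.5, 76.3 and 86.5 TPM in MIA + CTRL and 119.6, 122 and 120.2 TPM in MIA + MG-REP (log2 fold change 0.72, adjusted p = 0.0309, at most 0.211 with 1 library left out). Gm2a, the activator protein of ganglioside breakdown in the lysosome, had 212, 216 and 234 TPM in MIA + CTRL and 319, 312 and 318 TPM in MIA + MG-REP (log2 fold change 0.52, adjusted p = 0.00615), a small change with close replicates. Itgax stayed called both with the Xist covariate and in the Xist-carrying libraries alone. In these 2 alternatives, in that order, the adjusted p was 0.473 and 0.2 for Cst7, 0.253 and 0.0203 for Ctsh and 0.0618 and 0.153 for Gm2a.

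Receptors and enzymes of small metabolites held some of the largest changes. Of 31 transcripts of metabolite and lipid receptors Hcar2 was the called one. Hcar2 (NM_030701, chromosome 5, 123863570 to 123865516), a receptor for hydroxybutyrate and nicotinic acid, had 39.3, 16.1 and 15.6 TPM in MIA + CTRL and 232, 223 and 145 TPM in MIA + MG-REP (log2 fold change 3.12, SE 0.53, adjusted p = 0.00213). The Xist-carrying resident library was the highest of its group, and with the Xist covariate the change was 2.42. Haao, an enzyme of the kynurenine pathway that leads to quinolinic acid, had 13.4, 14.8 and 14.7 TPM in MIA + CTRL and 49.5, 48.6 and 43 TPM in MIA + MG-REP (log2 fold change 1.65, SE 0.25, adjusted p = 0.000618). Trpm2, a calcium channel opened by ADP-ribose, had 49.3, 48.6 and 53.8 TPM in MIA + CTRL and 118, 117 and 100.4 TPM in MIA + MG-REP (log2 fold change 1.13, SE 0.20, adjusted p = 0.00374). Ptger3 (NM_011196, chromosome 3, 157566821 to 157644758), a receptor of prostaglandin E, went down to near 1 TPM, with 6.68, 6.47 and 9.15 TPM in MIA + CTRL and 0.52, 0.61 and 0.96 TPM in MIA + MG-REP (log2 fold change −2.31, SE 0.29, adjusted p = 6.70e-05). It was the called member of 27 transcripts of prostanoid and leukotriene genes. Pla2g2d, a secreted phospholipase, had 6.97, 5.52 and 6.5 TPM in MIA + CTRL and 0.58, 2.27 and 1.82 TPM in MIA + MG-REP (log2 fold change −1.58, SE 0.23, adjusted p = 0.000375). Ptger3 and Pla2g2d kept the call with the Xist covariate and in the Xist-carrying libraries alone. Adjusted p-values under the covariate and in those libraries were 0.171 and 0.308 for Hcar2, 0.0387 and 0.0517 for Haao and 0.0686 and 0.155 for Trpm2.

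Cdkn2a and a pair of Bcl2a1 copies rose. Cdkn2a (NM_001040654, chromosome 4, 89274473 to 89294619), which encodes inhibitors of the cell cycle, had 0, 0.65 and 0 TPM in MIA + CTRL and 8.02, 7.78 and 4 TPM in MIA + MG-REP (log2 fold change 2.64, SE 0.21, adjusted p = 2.33e-08). The values rested on an estimated 0 to 2 reads in MIA + CTRL and 14 to 27 in MIA + MG-REP, so no fold is given against a group with values of 0, and the log2 value depends on the 1 TPM added. Outside the MG-REP groups the mean of Cdkn2a was at most 0.217 TPM. It therefore passed the authors' filter of 2 CPM in 3 libraries only through the MG-REP groups, and its p-value is not free of that filter. Bcl2a1a and Bcl2a1d, near-identical copies of a gene that blocks apoptosis, had 13.6, 14.3 and 15 TPM in MIA + CTRL and 54.4, 38.8 and 39 TPM in MIA + MG-REP (log2 fold change 1.54, adjusted p = 0.00167) and 29.7, 31.4 and 29.6 TPM in MIA + CTRL and 68.2, 63.1 and 56.4 TPM in MIA + MG-REP (log2 fold change 1.02, adjusted p = 0.0453, at most 0.249 with 1 library left out), and their reads may not be separable. They were the 2 called of 38 NF-kB pathway transcripts, whose median was 0.07. Mki67, a marker of dividing cells, had 3.43, 2.45 and 2.67 TPM in MIA + CTRL and 2.5, 3.16 and 2.65 TPM in MIA + MG-REP (log2 fold change −0.03, adjusted p = 0.992), and the groups overlapped. Of 47 transcripts of cell division genes none was called by limma in either direction (1, a lower one, at an unadjusted p under 0.05, against 6.2% of all transcripts). The median was 0.00, with single values from −0.46 to 0.42. The 2 most abundant were Ccnd1, a cyclin (log2 fold change 0.22, adjusted p = 0.978), and Cdkn1b, an inhibitor (log2 fold change 0.00, adjusted p = 1). Cdkn2a stayed called both with the Xist covariate and in the Xist-carrying libraries alone. Under the covariate and then in those libraries, adjusted p was 0.0377 and 0.116 for Bcl2a1a and 0.255 and 0.334 for Bcl2a1d.

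The remaining rises had other or less known roles. Ccl8, a chemokine, had 5.15, 6.52 and 6.4 TPM in MIA + CTRL and 15.9, 26.4 and 21.4 TPM in MIA + MG-REP (log2 fold change 1.64, SE 0.37, adjusted p = 0.0406, at most 0.273 with 1 library left out) and was the called member of 39 transcripts of chemokines and their receptors. Gcm2 (NM_008104, chromosome 13, 41101427 to 41111035), a transcription factor known from the parathyroid gland, had 0, 0.1 and 0.08 TPM in MIA + CTRL and 2, 1.87 and 1.35 TPM in MIA + MG-REP (log2 fold change 1.36, SE 0.12, adjusted p = 2.66e-07). Its values were low in both groups, on an estimated 0 to 1 reads in MIA + CTRL and 17 to 24 in MIA + MG-REP, yet the repopulated libraries all stood above the resident ones. Outside the MG-REP groups its mean was at most 0.133 TPM. Like Cdkn2a, it therefore passed the filter of 2 CPM in 3 libraries only through the MG-REP groups, and its p-value is not free of that filter. Phf11a, the called Egr3 transcript and Ccdc109b were also low outside those groups, with means of at most 1.84, 0.643 and 1.81 TPM. Whether they passed only through the MG-REP groups was not tested, so their p-values may not be free of the filter either. St14, the membrane protease matriptase, had 13.2, 12.9 and 17.7 TPM in MIA + CTRL and 39.8, 47.4 and 42 TPM in MIA + MG-REP (log2 fold change 1.51, adjusted p = 0.00287), and the 2 listed transcripts of Htra3, a secreted protease, had log2 fold changes of 1.50 and 1.36 (adjusted p = 0.0465 and 0.0249). Pxdc1 rose from 56.2 ± 5.5 to 146 ± 10.3 TPM (SD, n = 3, log2 fold change 1.36, adjusted p = 4.06e-05) and Tns4, a tensin of focal adhesions, from 3.36 ± 0.583 to 10.7 ± 0.745 TPM (SD, n = 3, log2 fold change 1.43, adjusted p = 9.73e-05). Fgl2, a fibrinogen-like immune regulator, rose from 24.1 ± 3.18 to 60.7 ± 8.31 TPM (SD, n = 3, log2 fold change 1.30, adjusted p = 0.00211), and Cd34, a sialomucin, from 6.57 ± 0.33 to 16.9 ± 2.79 TPM (SD, n = 3, log2 fold change 1.23, adjusted p = 0.0109, at most 0.0846 with 1 library left out). C920009B18Rik rose from 0.993 ± 0.167 to 5.1 ± 0.436 TPM (SD, n = 3, log2 fold change 1.61, adjusted p = 0.00133). 1 of 2 listed Egr3 transcripts, of a transcription factor induced by activity, rose by 0.76 (adjusted p = 0.0135) and was the called one of 37 immediate early transcripts. B3gnt7, a glycosyltransferase, Arl5c, a small GTPase, and Ccdc109b, a subunit of the mitochondrial calcium uniporter, rose by 1.42, 1.42 and 1.20, and the value of Ccdc109b in the Xist-carrying libraries alone was 0.72. 1700112E06Rik, 4930486L24Rik, Gm4961, Lrguk, Mtap7d3, Lrrc3, Rpl39, Eif4e3 and Rassf3 rose by 0.55 to 1.27, with adjusted p-values from 0.000405 to 0.0491. Gcm2, Pxdc1, Tns4, 1700112E06Rik and Lrrc3 kept the call with the Xist covariate and in the Xist-carrying libraries alone. St14 (0.111), Fgl2 (0.0593) and Rpl39 (0.053) kept it with the covariate and not in those libraries (adjusted p in parentheses). The others, Ccl8, Htra3, Cd34, C920009B18Rik, Egr3, B3gnt7, Arl5c, Ccdc109b, 4930486L24Rik, Gm4961, Lrguk, Mtap7d3, Eif4e3 and Rassf3, kept it in neither, with adjusted p-values of 0.0618 to 0.558 and 0.136 to 0.463.

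The deepest fall was that of Myo18b (NM_028901, chromosome 5, 112688876 to 112896461), an unconventional myosin first described in muscle, with 27.1, 40.5 and 36.4 TPM in MIA + CTRL and 1.81, 2.37 and 2.34 TPM in MIA + MG-REP (log2 fold change −3.48, SE 0.27, adjusted p = 2.33e-08). Gpr165 (NM_029536, chromosome X, 96713468 to 96719388), an orphan receptor, had 67.6, 94.5 and 105 TPM in MIA + CTRL and 7.47, 10.04 and 11.5 TPM in MIA + MG-REP (log2 fold change −3.07, SE 0.40, adjusted p = 9.73e-05). Slc5a10 (NM_001033227, chromosome 11, 61672782 to 61720817), a sodium-coupled sugar transporter, had 4.07, 4.91 and 5.79 TPM in MIA + CTRL and 0.7, 0.22 and 0.11 TPM in MIA + MG-REP (log2 fold change −2.16, SE 0.27, adjusted p = 7.99e-05). All 3 were nearly gone or much reduced in each repopulated library. Ccdc162 fell from 14.6 ± 0.538 to 3.12 ± 0.459 TPM (SD, n = 3, log2 fold change −1.93, adjusted p = 0.00484), Apobec2, a muscle member of the deaminase family, from 6.47 ± 1.91 to 1.29 ± 0.265 TPM (SD, n = 3, log2 fold change −1.67, adjusted p = 0.000605), and Ccr1l1, a chemokine receptor-like protein, from 3.99 ± 0.764 to 0.857 ± 0.0379 TPM (SD, n = 3, log2 fold change −1.42, adjusted p = 0.00211). Gem, a small GTPase, had 197, 280.0 and 205 TPM in MIA + CTRL and 77.2, 118 and 87.4 TPM in MIA + MG-REP (log2 fold change −1.26, adjusted p = 0.00354), and Rcan1, an inhibitor of calcineurin, had 5.84, 10.6 and 8.52 TPM in MIA + CTRL and 2.63, 3.46 and 2.43 TPM in MIA + MG-REP (log2 fold change −1.26, adjusted p = 0.00484, at most 0.0695 with 1 library left out). Both are known to respond to calcium signals. Hsp90aa1, the inducible form of the chaperone HSP90, had 117, 275 and 252 TPM in MIA + CTRL and 83.1, 89.9 and 83.1 TPM in MIA + MG-REP (log2 fold change −1.23, adjusted p = 0.0117, at most 0.151 with 1 library left out). Its Xist-carrying resident library was below the other resident ones by more than 100 TPM, and with the Xist covariate the change was −0.67 and in the Xist-carrying libraries −0.46. Lyzl4, Gm15880, Gm13889, Sema4b, Sdk1, Arrdc3, Cmya5, Phactr3 and Jup fell by 0.58 to 1.27, with adjusted p-values from 0.00641 to 0.0411. Myo18b, Slc5a10 and Gm13889 stayed called both with the Xist covariate and in the Xist-carrying libraries alone. Gpr165 (0.0702) kept it with the covariate and not in those libraries (adjusted p in parentheses). Phactr3 (0.0914) kept it in those libraries and not with the covariate (adjusted p in parentheses). The others, Ccdc162, Apobec2, Ccr1l1, Gem, Rcan1, Hsp90aa1, Lyzl4, Gm15880, Sema4b, Sdk1, Arrdc3, Cmya5 and Jup, kept it in neither, with adjusted p-values of 0.0506 to 0.549 and 0.0781 to 0.454.

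Promoters are shown for the most increased and most decreased genes that have an entry, and for 3 of the 6 called genes whose promoter held more than 1 kind of motif searched, chosen after the matches were seen. They are the 250 bases before the transcription start in RefSeq on GRCm38.p6, written from 5′ to 3′ on the strand of the gene.
Tnfsf8 (chr4:63861285-63861534, minus strand): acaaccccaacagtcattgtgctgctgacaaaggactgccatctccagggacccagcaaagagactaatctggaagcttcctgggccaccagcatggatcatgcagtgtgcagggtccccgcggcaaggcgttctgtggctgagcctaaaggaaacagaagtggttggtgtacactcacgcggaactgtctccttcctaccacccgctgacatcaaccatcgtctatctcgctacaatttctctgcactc
Pdcd1 (chr1:94052554-94052803, minus strand): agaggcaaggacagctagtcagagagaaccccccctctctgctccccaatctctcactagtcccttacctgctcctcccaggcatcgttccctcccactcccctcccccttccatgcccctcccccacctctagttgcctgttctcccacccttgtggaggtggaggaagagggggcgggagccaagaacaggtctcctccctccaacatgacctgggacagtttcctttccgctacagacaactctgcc
Gpr165 (chrX:96713218-96713467, plus strand): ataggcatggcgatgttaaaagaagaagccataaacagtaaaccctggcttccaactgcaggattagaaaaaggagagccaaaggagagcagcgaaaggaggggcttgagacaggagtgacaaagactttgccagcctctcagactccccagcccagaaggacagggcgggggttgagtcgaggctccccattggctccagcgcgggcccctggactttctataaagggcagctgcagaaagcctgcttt
Ptger3 (chr3:157566626-157566875, plus strand): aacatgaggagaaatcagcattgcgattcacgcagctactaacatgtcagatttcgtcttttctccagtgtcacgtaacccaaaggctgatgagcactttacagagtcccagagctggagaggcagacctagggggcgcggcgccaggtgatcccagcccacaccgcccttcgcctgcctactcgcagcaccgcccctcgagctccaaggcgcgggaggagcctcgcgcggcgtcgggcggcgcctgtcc
Tnfsf13b (chr8:10006383-10006632, plus strand): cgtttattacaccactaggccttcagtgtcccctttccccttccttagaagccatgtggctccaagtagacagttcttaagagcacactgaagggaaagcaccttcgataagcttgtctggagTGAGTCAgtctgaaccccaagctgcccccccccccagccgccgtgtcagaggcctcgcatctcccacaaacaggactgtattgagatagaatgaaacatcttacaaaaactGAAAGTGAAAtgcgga
Phf11a (chr14:59297523-59297772, minus strand): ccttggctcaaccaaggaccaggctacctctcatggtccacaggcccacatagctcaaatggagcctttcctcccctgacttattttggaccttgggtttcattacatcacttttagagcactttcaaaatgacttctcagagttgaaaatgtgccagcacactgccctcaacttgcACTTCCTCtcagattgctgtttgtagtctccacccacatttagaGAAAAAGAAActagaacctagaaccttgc
Tnfrsf17 (chr16:11313559-11313808, plus strand): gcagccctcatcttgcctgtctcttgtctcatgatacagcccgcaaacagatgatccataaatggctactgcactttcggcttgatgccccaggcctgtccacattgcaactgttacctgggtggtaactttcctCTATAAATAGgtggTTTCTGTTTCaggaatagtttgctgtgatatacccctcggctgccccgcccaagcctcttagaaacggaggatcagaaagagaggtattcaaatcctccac
Capitals mark matches on either strand to the motifs of PU.1 (GAGGAAGT), AP-1 (TGANTCA), the interferon-stimulated response element (GAAA, any 2 bases, GAAA), kappaB and MEF2. The promoters of Tnfsf8, Pdcd1, Gpr165 and Ptger3 held no match. Tnfsf13b held an AP-1 match 127 to 121 bases before the start and an interferon-response match 16 to 7 bases before it. Phf11a held a PU.1 match at 73 to 66 and an interferon-response match at 29 to 20 bases, and Tnfrsf17 an interferon-response match at 101 to 92 and a MEF2 match at 115 to 106 bases. No match overlapped another. Over the 10524 genes of the table with an entry, 2.61% of promoters held PU.1, 4.39% AP-1, 2.65% the interferon-response motif, 4.87% kappaB and 1.54% MEF2. A comparison of these shares between the called genes and all genes is void, because entries were found for only 39 of 54 increased and 16 of 24 decreased genes, under 80%. Hcar2 and Myo18b were among those without one.

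Homeostatic genes of microglia gave no call. Of 30 homeostatic transcripts none passed limma's adjusted threshold (2 higher and 4 lower at an unadjusted p under 0.05, against 6.2% of all transcripts). Their log2 fold changes ran from −0.57 to 0.52, with a median of −0.02. P2ry12, a receptor for nucleotides, had 2847, 4017 and 3933 TPM in MIA + CTRL and 2903, 3404 and 3019 TPM in MIA + MG-REP (log2 fold change −0.20, SE 0.24, adjusted p = 0.978). Tmem119, a surface marker, had 1903, 2827 and 3097 TPM in MIA + CTRL and 2933, 3412 and 3109 TPM in MIA + MG-REP (log2 fold change 0.30, SE 0.22, adjusted p = 0.978). Cx3cr1, the fractalkine receptor, and Csf1r, the target of the inhibitor, had log2 fold changes of −0.07 and −0.08 (adjusted p = 0.979 for each), with 6357, 7273 and 6824 TPM of Csf1r in MIA + MG-REP against 5475, 7957 and 8606 TPM in MIA + CTRL. The library with the lowest value was MIA + CTRL library 1 for all 4 genes. Cst3, a protease inhibitor and among the most abundant homeostatic transcripts, had no call either (log2 fold change 0.20, adjusted p = 0.979). In the CSF1 receptor axis none of 13 transcripts was called by limma (3 at an unadjusted p under 0.05, all higher, against 6.2% of all transcripts). Csf2ra, a subunit of the GM-CSF receptor, had 189, 176 and 179 TPM in MIA + CTRL and 364, 320.5 and 256 TPM in MIA + MG-REP (log2 fold change 0.77, adjusted p = 0.0682), without overlap but short of the threshold.

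In 8 further lists no transcript was called by limma. At an unadjusted p under 0.05 there were, in the order below, 4, 6, 7, 1, 3, 2, 5 and 1, against 6.2% of all transcripts. They were, with their median log2 fold changes, the TGF-beta pathway (0.01, 31 transcripts), lineage transcription factors (−0.01, 32), interleukins and their receptors (0.01, 40), purinergic receptors (−0.09, 21), glycolysis (−0.06, 25), cholesterol and lipid handling (−0.21, 38), Toll-like receptors and adaptors (0.17, 30) and the study's own neurite outgrowth genes (−0.27, 9). The most abundant members had log2 fold changes of 0.09 for Tgfb1 and −0.02 for Ski, −0.52 for Klf2, 0.00 for Il10ra and 0.10 for Ifngr1, and −0.09 for P2ry13 beside P2ry12. They were 0.44 for Slc2a1 and 0.00 for Gpi1, −0.58 for Scd2 and 0.02 for Pltp, and 0.48 for Ly86 and 0.19 for Cd14. Ly86, a partner of a Toll-like receptor relative, had 1019, 1494 and 1628 TPM in MIA + CTRL and 1836, 2006 and 1826 TPM in MIA + MG-REP (adjusted p = 0.64), without overlap. The neurite outgrowth list was picked by the study on these libraries and is no independent evidence of a direction. Its members Plau, a protease, and Ptn, a growth factor, had 129, 123 and 113 TPM in MIA + CTRL and 198, 240.4 and 180.3 TPM in MIA + MG-REP (log2 fold change 0.75, adjusted p = 0.397) and 718, 452 and 389 TPM in MIA + CTRL and 463, 338 and 463 TPM in MIA + MG-REP (log2 fold change −0.27, adjusted p = 0.979). Ntrk2, Ctnnd2, Ncam2, Ntn1 and Wnt5a had log2 fold changes from −0.66 to 0.11, and their groups overlapped.

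**Figure D2:**
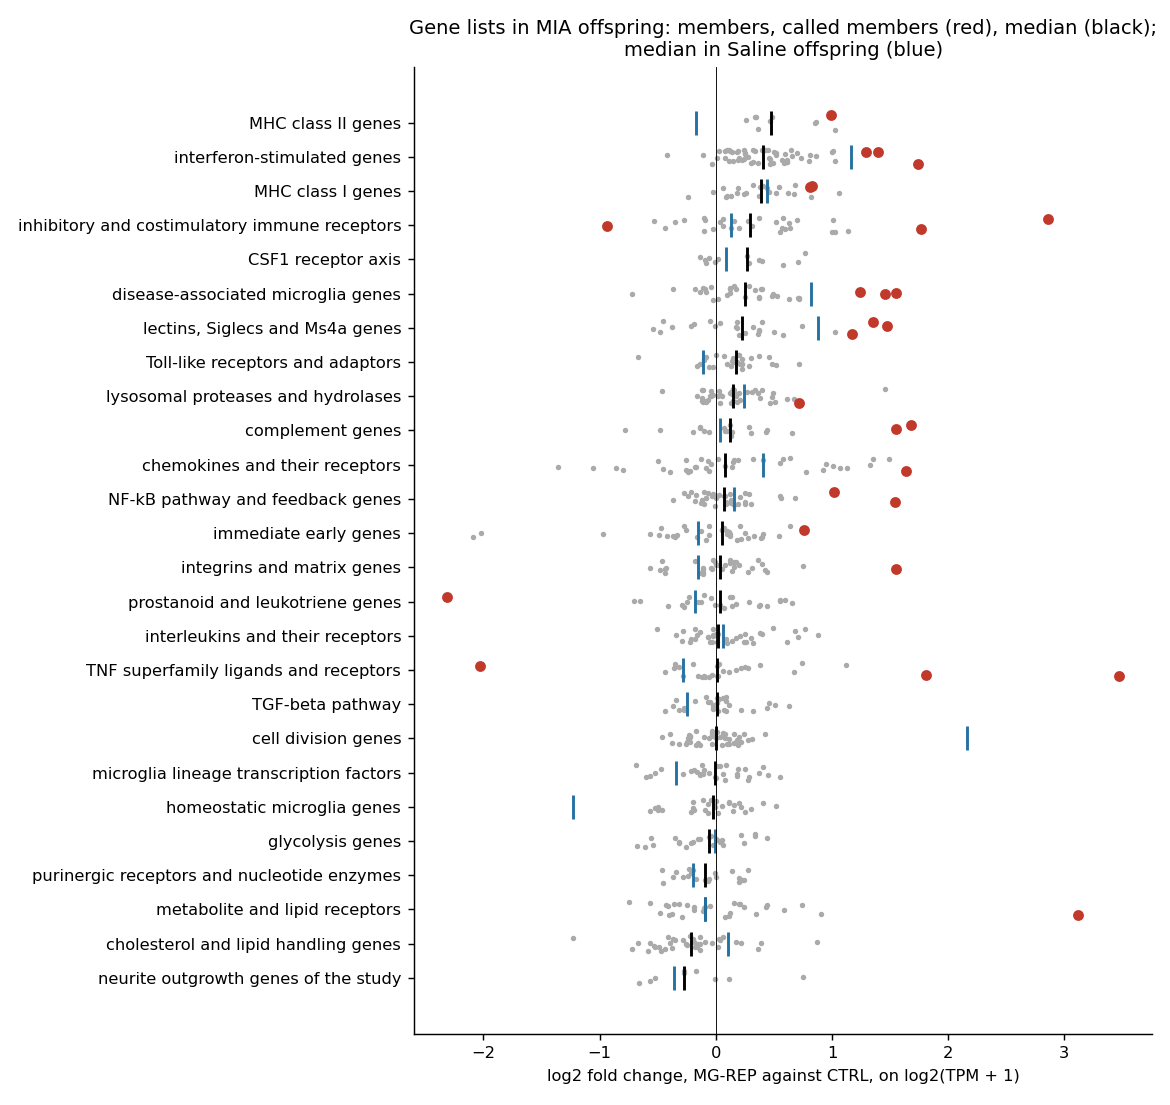
Log2 fold change in MIA offspring (horizontal axis, on log2(TPM + 1)) of each transcript in 26 gene lists, in order of the list median. Grey points were not called, red points were, black bars are the medians in MIA offspring and blue bars those in Saline offspring, which were 2.16 for cell division and −1.22 for homeostatic genes against 0.00 and −0.02 in MIA offspring.

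The same chow gave a far broader change in Saline offspring, whose libraries are none of the 6. There 3805 transcripts were called in the same fit (26.7%), 11.9% higher and 14.9% lower. Xist was again carried by 1 of 3 CTRL and all 3 MG-REP libraries, so sex was mixed alike in both comparisons. A difference between the sexes would therefore appear with the same sign in both, and the agreement counted next is not free of sex. All 79 transcripts called in MIA offspring had the same sign in Saline offspring, and 71 of them (89.9%) were called there, 50 of 55 higher and 21 of 24 lower. Among the 8 that were not were Ccl8, Lrguk, Mtap7d3, Lrrc3, H2-M3, Phactr3 and Hsp90aa1. The median change of the 55 was 1.36 in MIA and 2.26 in Saline offspring, and that of the 24 was −1.25 and −1.96. Since the transcripts were selected on MIA values, the MIA medians are not free of that selection. The Saline change was the larger in size for 43 of the 55 and 18 of the 24. The shares of all transcripts with the same sign in both, or with the larger change in Saline offspring, were not taken. The counts of sign and of size therefore do not set the 79 apart from other transcripts. The difference itself, MIA minus Saline, was called for 27 of the 79 (19 of the 55 and 8 of the 24), while 10.5% of all transcripts had a called difference, 4.42% above 0 and 6.09% below it. Of the 3734 transcripts called in Saline but not in MIA offspring, 1437 (38.5%) had a called difference, so 27 of 79 is no excess over those. The change was larger in Saline offspring for 26 of the 27, and for Lrrc3, a leucine-rich repeat protein, it was larger in MIA offspring.

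**Figure D3:**
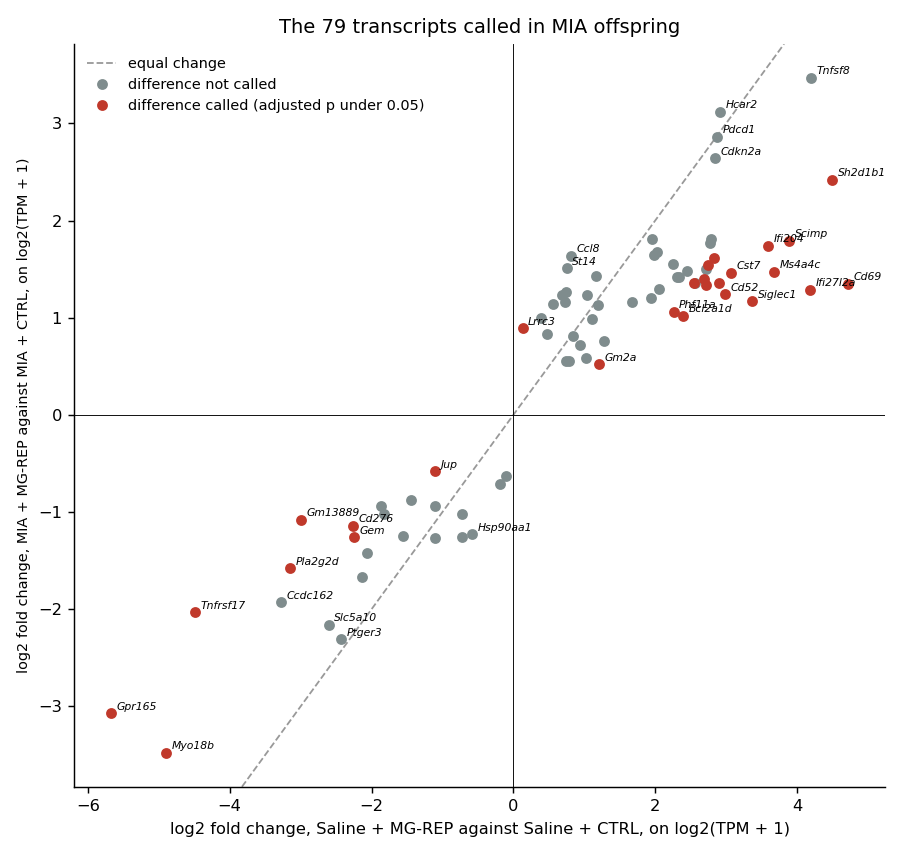
Log2 fold change of MG-REP against CTRL in Saline offspring (horizontal) and in MIA offspring (vertical), both on log2(TPM + 1), for the 79 transcripts called in MIA offspring. All points lie in the lower left or upper right quadrant, and 61 of the 79 lie between the horizontal axis and the dashed line of equal change, with the 27 red points called for the difference.

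Among the rises, Cd69 and Ifi27l2a differed most. Cd69 stood at 15.9, 16 and 10.8 TPM in MIA + MG-REP and at 258, 149.6 and 123 TPM in Saline + MG-REP (difference −3.36, adjusted p = 3.24e-06). Ifi27l2a stood at 62.2, 69.7 and 52.3 and 402, 438 and 489.5 TPM (−2.90, adjusted p = 3.58e-07). Siglec1, Ms4a4c, Scimp and Sh2d1b1 also rose less in MIA offspring, by 2.07 to 2.22 on the log2 scale. For Cd52 the Saline + MG-REP libraries held 2841, 2414 and 2447 TPM (−1.73, adjusted p = 5.15e-05). Among the falls, Gpr165 went to 0.07, 1.19 and 1.54 TPM in Saline + MG-REP and only to 7.47, 10.04 and 11.5 TPM in MIA + MG-REP (2.60, adjusted p = 0.00325), and Tnfrsf17 to 0, 1.68 and 1.35 and 6.78, 11.2 and 5.97 TPM (2.46, adjusted p = 0.00328).

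Other genes had close values in both. Pdcd1 rose by 2.86 in MIA and 2.87 in Saline offspring, with a 95% interval of the difference from −0.77 to 0.75. For Hcar2 the interval was −1.33 to 1.75, for Trpm2 −0.66 to 0.51, for H2-D1 −0.53 to 0.48 and for Ptger3 −0.71 to 0.97. Differences of any size within these bounds cannot be told from none. St14, a rise of 1.51 in MIA and 0.75 in Saline offspring, was one of 4 increased transcripts for which every Saline + MG-REP library lay below every MIA + MG-REP library, with Mtap7d3, Lrrc3 and 4930486L24Rik. This was so for 25.3% of all transcripts. For 34 of the 55 every Saline + MG-REP library lay above, against 17.4% of all transcripts. The CTRL libraries of Saline and MIA offspring did not overlap for 7 of the 55 and 3 of the 24, against 5.93% of all transcripts.

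Over all transcripts, the 5 largest differences below 0 were those of Il12b, Ube2c, Mki67, Ccnb2 and Cdkn3. Il12b, a subunit of interleukin-12, had 1.18, 1 and 1.31 TPM in MIA + CTRL and 3.98, 2.35 and 1.65 TPM in MIA + MG-REP (log2 fold change 0.71, adjusted p = 0.978) and 314, 127 and 128 TPM in Saline + MG-REP (difference −5.85, adjusted p = 5.03e-06). The other 4 act in cell division, and in MIA + MG-REP all of them stayed below 4 TPM, against 22.3 to 261 TPM in Saline + MG-REP. The 5 largest differences above 0 were those of Upk1b, Mlph, Cd209f, Mir8091 and Gp9. Upk1b, a tetraspanin, had 87.1, 115 and 99.1 TPM in MIA + CTRL and 27.7, 43.2 and 42 TPM in MIA + MG-REP (log2 fold change −1.41, adjusted p = 0.207) and 0.41, 2.15 and 3.25 TPM in Saline + MG-REP (difference 3.99, adjusted p = 6.65e-05). Mlph, a linker of vesicles to myosin, had 53.1, 73.8 and 79.7 TPM in MIA + CTRL and 32.1, 44 and 37.3 TPM in MIA + MG-REP and 0.8, 4.07 and 4.7 TPM in Saline + MG-REP (difference 3.70, adjusted p = 1.24e-05). Neither overlapped between the MIA groups, but neither was called there. Cd209f, a lectin, Gp9, a platelet glycoprotein, and Mir8091, a microRNA precursor, had log2 fold changes of −0.87, −0.05 and 1.27 in MIA offspring (adjusted p = 0.789, 0.99 and 0.334), and the MIA groups overlapped for Gp9.

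The table also lists MIA offspring at E17 (embryonic day 17), P7 and P20, with 3 libraries each. At E17 a library held the cells of 1 litter and at P7 those of pooled brains, so these levels are given as a description. For 46 of the 55 increased transcripts the MIA + MG-REP mean was above the mean at every younger age. The 9 that were not were those of Rpl39, Map4k1, Itgax, Cd69, Ccl8, C920009B18Rik and Arl5c and both of Htra3. Itgax had a mean of 78.2 ± 23.6 TPM (SD, n = 3) at P7, 19.6 TPM at P20 and 16.3 ± 3.01 TPM in MIA + CTRL and 49.6 ± 5.27 TPM in MIA + MG-REP. Tnfsf8, in contrast, had 0.237, 0.207 and 0.83 TPM at E17, P7 and P20, and Cdkn2a at most 0.0967 TPM. For 18 of the 24 decreased transcripts the MIA + MG-REP mean was below that at every younger age. Since the 55 and the 24 were selected for high or low values in MIA + MG-REP, both counts are partly fixed by that choice. The share over all transcripts was not taken, so neither count is a result about development. Myo18b had 10.9, 24.3 and 58.9 TPM, all above the repopulated mean of 2.17 TPM. Tnfsf13b had 1.72, 2.08 and 9.06 TPM at these ages against a repopulated mean of 88.9 TPM. Trpm2 had 15.6, 6.44 and 45.5 TPM, against 50.6 TPM in MIA + CTRL and a repopulated mean of 112 TPM.

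**Figure D4:**
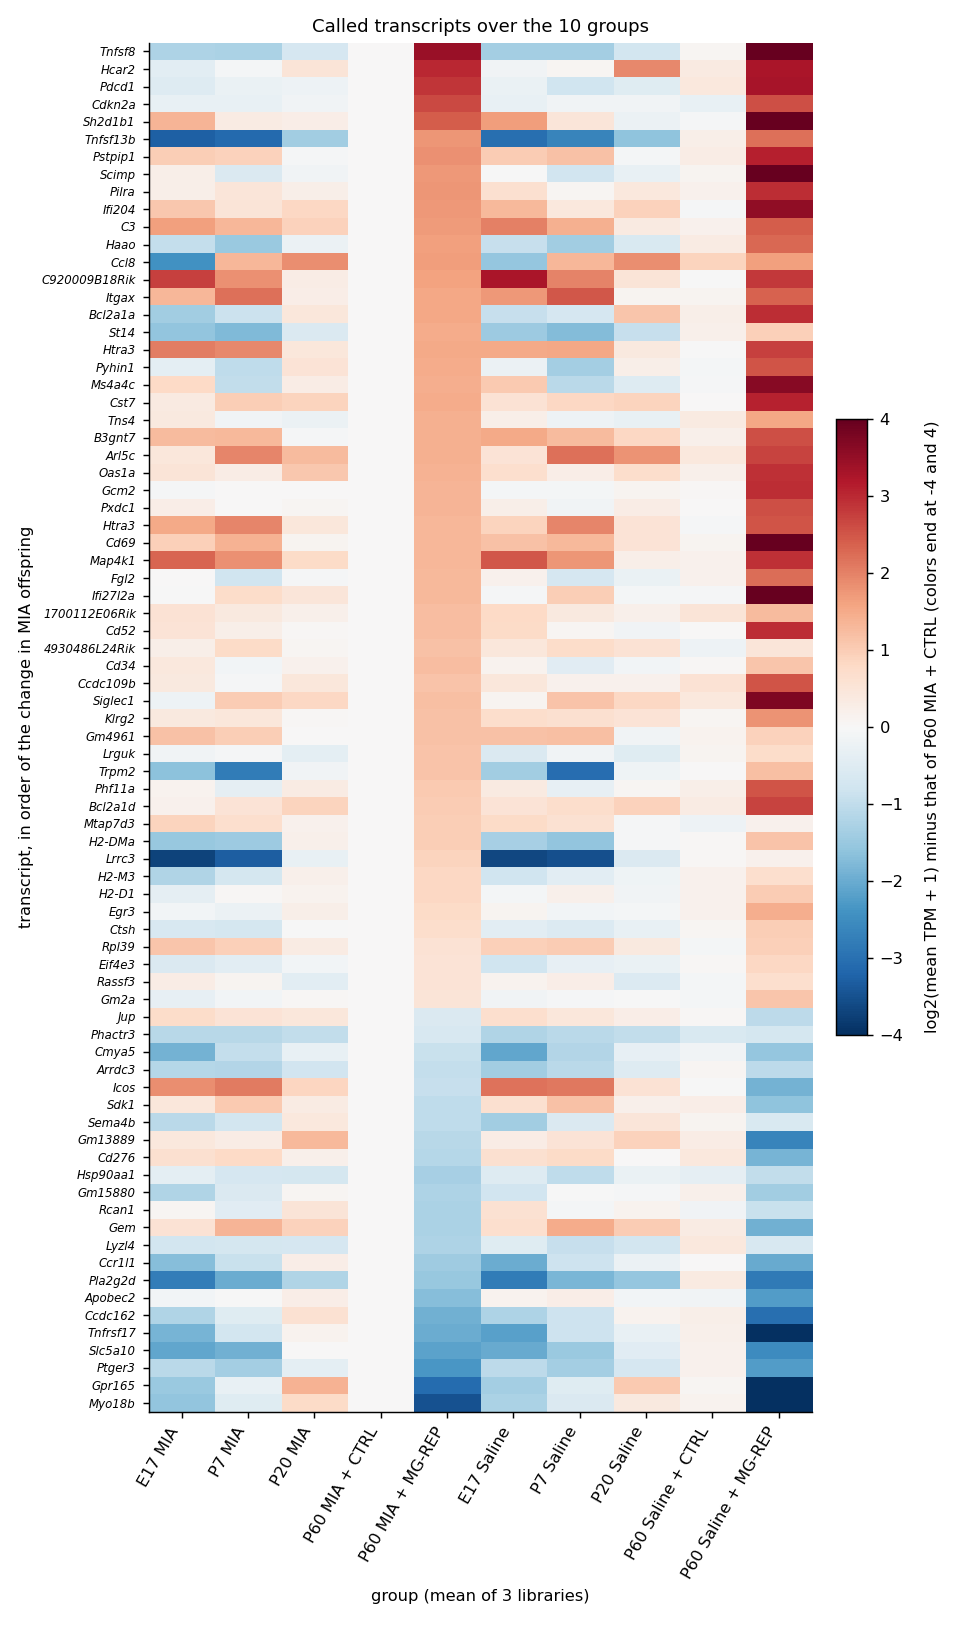
Mean level of 78 of the 79 transcripts (rows, in order of the change in MIA offspring) in the 10 groups (columns), as log2(mean TPM + 1) minus that of P60 MIA + CTRL, with red above and blue below it. The MIA + MG-REP column is red for the upper 55 rows and blue for the rows under them, and the Saline + MG-REP column has the same colors, mostly deeper.

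Each transcript carried 1 of 5 module labels that the authors derived by clustering these libraries. Of the 55 increased transcripts 47 (85.5%) were labelled REP-AM, against 7.97% of all transcripts, and 12 of the 24 decreased ones (50%) were labelled JM, against 16.3%. The labels came from the same values, so these counts describe the modules and support nothing. The median log2 fold change in MIA offspring was 0.13 over the 1134 REP-AM transcripts, of which the 47 are 4.14%, and in Saline offspring it was 0.60, with 623 called higher.

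Markers of other cell types were summed in each library. Those of bone marrow-derived macrophages (14 genes) added up to 1234, 1361 and 1369 TPM in MIA + CTRL and to 1993, 2216 and 1792 TPM in MIA + MG-REP, without overlap, and to 8761 to 12338 TPM in Saline + MG-REP. Most of it was Lyz2, a lysozyme. 13 of the 14 had positive log2 fold changes in MIA offspring, against 4890 of all 14225 transcripts. Lyz2 had the largest, 0.72 (adjusted p = 0.354). Ccr2, the monocyte chemokine receptor, had 0.58 (adjusted p = 0.816). Dendritic cell markers (10 genes) added up to 324 to 388 TPM in MIA + CTRL and 423 to 505 TPM in MIA + MG-REP, while Xcr1 was under 1 TPM in all 6 libraries. Bst2 of that list, which interferons also induce, had 234, 265 and 277 TPM in MIA + CTRL and 403, 397 and 317 TPM in MIA + MG-REP and made up most of the rise of the sum. The other members went both ways (Cd209a −0.21, Klrd1 −0.79), and the mean log2 change over the list was 0.00. Border macrophage markers (19 genes) added up to 1846 to 1984 TPM in MIA + CTRL and 1527 to 1782 TPM in MIA + MG-REP. Of the 21 transcripts of that list 8 had a positive log2 fold change, and the median over the list was −0.21. Siglec1 was called higher. Ccl24, Mrc1 and Pf4 had log2 fold changes of −1.06, −0.54 and −0.65 and were not called. Cd163 of that list was under 1 TPM in all 6. B cell markers (3 genes) added up to 2.92 to 4.22 TPM in MIA + CTRL and 1.63 to 2.64 TPM in MIA + MG-REP, without overlap. Monocyte and neutrophil markers (21 genes), NK and T cell markers (12 genes) and microglial markers (10 genes) overlapped between the groups, as did those of neurons, astrocytes, the oligodendrocyte lineage, endothelium, choroid plexus and red cells. Among these, 0 of 18 astrocyte and 0 of 17 oligodendrocyte lineage transcripts had a positive log2 fold change, against 4890 of all 14225 transcripts. The medians were −0.54 and −0.72, against −0.08 for all transcripts, and MIA + CTRL library 1 held the highest sum of both lists. By the two-sided exact permutation test no sum could reach a p below 0.1, and the adjusted p over 14 lists was 0.35 for each of the sums above that did not overlap. The part of these cells in the changes above was not tested.

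**Figure D5:**
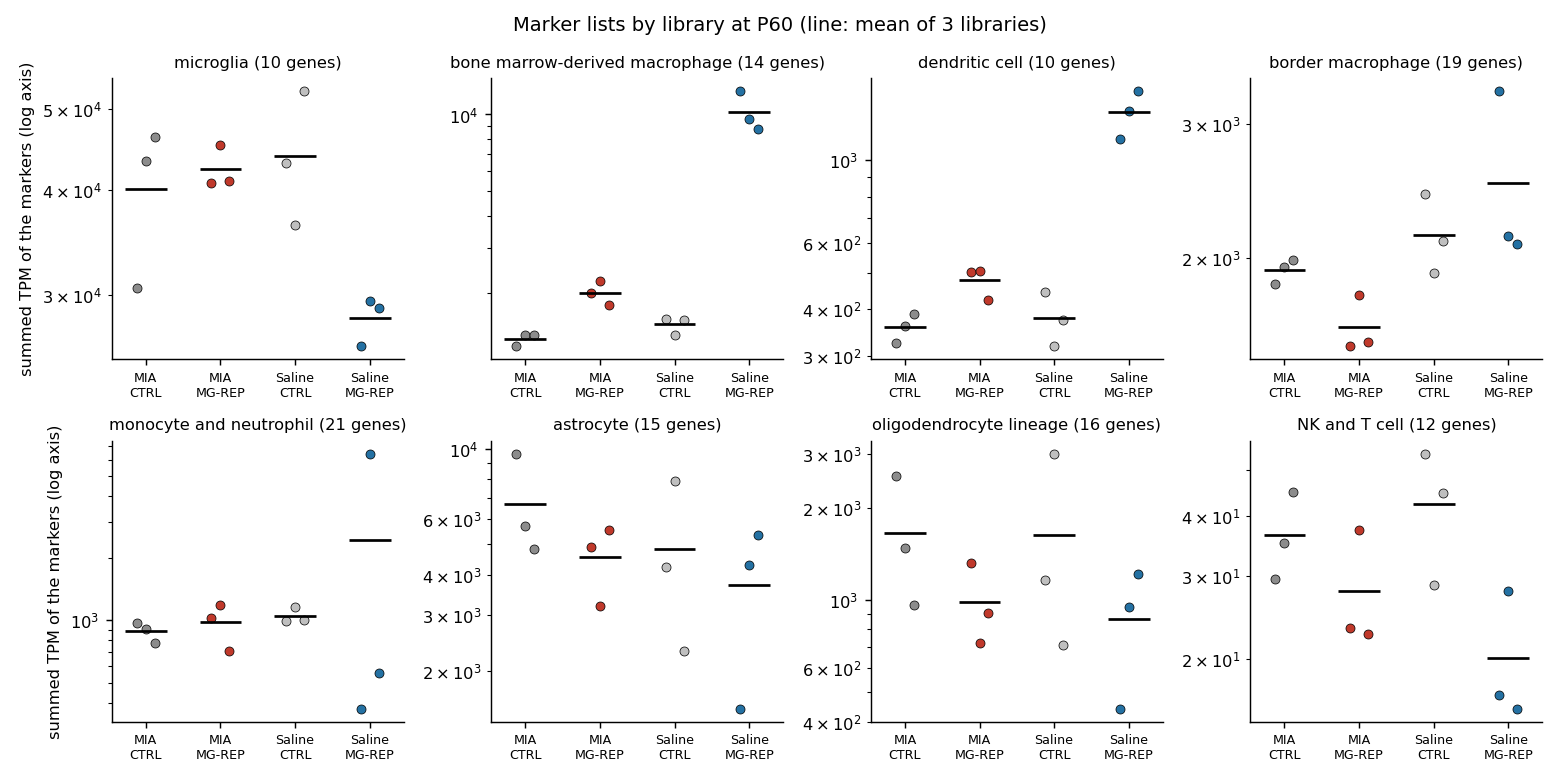
Summed TPM of the markers of 8 cell types (log axis) in the 12 P60 libraries, 1 point per library with the group mean as a line. The bone marrow-derived macrophage and dendritic cell sums lie higher in MIA + MG-REP (red) than in MIA + CTRL (dark grey) and far higher in Saline + MG-REP (blue), and the microglial sum is lowest in Saline + MG-REP.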

How the data were processed

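Poly(A) RNA of bead-isolated CD11b+ cells was sequenced from 30 libraries in 10 groups, with non-stranded kits. The values deposited by the authors are TPM, abundances scaled for transcript length and depth, of 14225 transcripts, kept by a filter of 2 CPM in 3 libraries, and the submitters' processing notes name featureCounts and mm10. The table also holds module names from the authors' clustering. Low TPM lie in steps that gave an estimate of depth. Of the low values, 73.5 to 75.8% came within 0.2 of whole reads, where chance alone gives 40%, so no count model was run, and the estimates cover counting error only. Identifiers were matched to RefSeq genes of GRCm38.p6 (99.87%) and transcript lengths were found for 98.45%.

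Log2(TPM + 1) was fitted in all 30 libraries with limma 3.58.1 (R 4.3.3), 1 mean per group and an intensity trend, and Benjamini-Hochberg adjustment ran over all transcripts, with a threshold of 0.05. Fold changes on this scale understate those of low transcripts. In data simulated for this comparison the fit called 31 of 50 transcripts changed by 1 on the log2 scale (62%), 46 of 50 changed by 2 (92%), and 11 unchanged ones. Summed marker TPM were compared by the two-sided exact permutation test, whose smallest p at 3 against 3 is 0.1.

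Groups came from the labels, which do not say that mice came from separate litters, so p-values measure the spread between these samples. The members and gene lists were chosen with earlier results of these data known. Named were the transcripts called, the 2 most abundant of each list without a call (a few genes of this rule are not reported here), the 5 largest differences between MIA and Saline offspring in each direction, Xist and Y genes, and a short fixed list of microglial and neurite outgrowth genes. Genes named outside this rule (Tnf, Cd74, H2-Ab1, Ccr2, Cd79a, Cd79b and the values of Ly86 by library) were singled out after their values were seen. Alternatives were a pseudocount of 0.1, a filter at a mean of 1 TPM, median-ratio scaling, quantile normalization, no trend, only the 4 P60 groups, only the groups compared, a replicate block, an Xist covariate and each library left out. The Xist-carrying P60 libraries alone were tried after the data were seen.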

Additional observations from a re-analysis of the deposited data

Results flagged for a closer look

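For 27 transcripts called in MIA offspring the change of MG-REP against CTRL differed between MIA and Saline offspring by limma's interaction contrast (adjusted p under 0.05 over all transcripts). The values given are MIA minus Saline on log2(TPM + 1), over 12 libraries with 3 in each group.

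Among surface receptors and adaptors that rose less in MIA offspring, the difference was −3.36 for Cd69, −2.22 for Ms4a4c, −2.21 for Siglec1, −2.10 for Scimp, −2.07 for Sh2d1b1, −1.73 for Cd52 and −1.38 for Map4k1. Among genes that interferons induce it was −2.90 for Ifi27l2a, −1.85 for Ifi204, −1.29 for Oas1a and −1.21 for Phf11a. The protease inhibitor Cst7 differed by −1.61, the transcription factor Gcm2 by −1.54, the survival genes Bcl2a1d and Bcl2a1a by −1.37 and −1.20, C920009B18Rik by −1.22, Pxdc1 by −1.18 and the lysosomal Gm2a by −0.69.

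Among genes that fell less in MIA offspring, the difference was 2.60 for the orphan receptor Gpr165, 2.46 for Tnfrsf17, 1.91 for Gm13889, 1.57 for the phospholipase Pla2g2d, 1.42 for the myosin Myo18b, 1.12 for Cd276, 0.99 for the small GTPase Gem and 0.51 for the junction protein Jup. Lrrc3 rose more in MIA offspring, by 0.77. Of all transcripts tested, 10.5% had a called difference, and of those called in Saline but not in MIA offspring 38.5% had a called difference. In the Xist-carrying libraries alone 638 transcripts had one in place of 1496.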

How the results depend on the processing

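All 79 called transcripts kept their sign in each of the 16 alternatives that tested them. The filter at a mean of 1 TPM left only 76 of them to test, and these 76 stayed called. The count of 79 became 30 with the Xist covariate and 29 with the Xist-carrying libraries alone, and 41 to 71 with 1 library left out. It was 72 with a pseudocount of 0.1, 77 with the filter, 71 with either scaling, 73 without the trend, 73 with the 4 P60 groups and 78 with only the groups compared. These totals hide turnover. Of the 79 themselves, 49 stayed called with only the groups compared, 52 with the 4 P60 groups and 57 with quantile normalization. It was 63 of them with that pseudocount, 67 with median-ratio scaling and 72 without the trend. With 1 library left out 40 to 51 of them stayed called. Replicate numbers did not pair the samples (r of same-numbered MIA libraries 0.28, 0.13 and −0.26), and with a replicate block 66 were called, 48 of them higher. In Saline offspring the count of 3805 became 1911 with only the groups compared, 1886 with the Xist-carrying libraries and 2460 to 3729 with 1 library left out. Called differences numbered 638 with the Xist-carrying libraries and 963 to 1631 with 1 left out. The count also called in Saline offspring, 71, became 28 with the covariate, 21 with the Xist-carrying libraries and 39 to 80 with 1 left out. The cause was not tested, other than that the last restriction uses fewer libraries.

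Of 416 list medians under an alternative 19 moved by more than their spread. With the Xist covariate they were 0.18 for NF-kB, −0.22 for purinergic, −0.31 for glycolysis and −0.13 for integrin genes. With the Xist-carrying libraries they were 0.23 for homeostatic genes, 0.13 for lineage factors, 0.20 for NF-kB, 0.31 for interleukins, 0.15 for prostanoid genes, 0.16 for interferon-stimulated genes, 0.31 for lysosomal, −0.36 for glycolysis, −0.50 for cholesterol and −0.13 for integrin genes. The purinergic median was −0.02 under median-ratio scaling. With 1 library left out the CSF1 receptor axis ran from 0.14 to 0.40 and metabolite receptors from −0.14 to 0.14. As means of log2 values, the marker changes were 0.29 for bone marrow-derived macrophages, 0.00 for dendritic cells and −0.99 for sex-linked genes. Of 55 named transcripts that were not called, 6 became so, Xist, Ddx3y, Kdm5d, Eif2s3y and Uty without MIA + CTRL library 1 and Upk1b with only the groups compared. Depth limits transcripts of a few reads, such as Cdkn2a and Gcm2.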
